A study of Mus musculus with 4 samples.

Results

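The genes described here are those of the glucocorticoid receptor, of the Hsp90 machinery that folds it, and of the enzyme that makes its natural ligand inside cells. They were selected by gene symbol for their known roles, with earlier results of these data known: Nr3c1, Fkbp5, Fkbp4, Hsp90aa1, Hsp90ab1, Ptges3, Stip1, Hspa8, Ppid and Hsd11b1. All 10 were found among the 23282 features of the deposited count table, and all 10 had enough counts to be tested. The samples were C2C12 myotubes, the fused muscle cells formed by a mouse myoblast line, which had been deprived of steroids. They received vehicle or 1 µM of the synthetic glucocorticoid dexamethasone for 2 h, with 2 libraries in each group and 4 in all. The sequenced RNA was the fraction that stayed with nuclear chromatin, which is enriched for transcripts near the time of their synthesis. All samples come from 1 cell line, and nothing in the labels says whether the libraries of a group were separate cultures, so the p-values measure the spread between these libraries, which may be technical.

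In the cytoplasm the receptor protein is held in a form able to bind hormone by a cycle of chaperones. Hsp70 and its partners deliver it to Hsp90 through the adaptor Hop, the small protein p23 stabilises the closed Hsp90 complex, and an immunophilin (FKBP51, FKBP52 or cyclophilin 40) docks on the tail of Hsp90. FKBP51, the product of Fkbp5, lowers the receptor's affinity for hormone, and Fkbp5 is itself a classical target gene of the receptor, so the pair forms a short feedback loop. Receptor gene transcription is known to be lowered by glucocorticoids in many cell types.

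The promoters of Fkbp5 and Fkbp4, the genes of the paralogous immunophilins FKBP51 and FKBP52 that compete for the same Hsp90 site, are shown because Fkbp5 passed the test after dexamethasone and Fkbp4 did not. Each run gives the 250 bases before the annotated start, read 5′ to 3′ on the gene's strand, from RefSeq sequence of build GRCm38.p6; capitals mark GC boxes (GGGCGG) and CCAAT boxes (CCAAT) on either strand. The table of promoter sequences held 5 of the 10 genes (Fkbp5, Fkbp4, Ptges3, Stip1 and Hsd11b1).

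Fkbp5, chr17:28486150-28486399, minus strand: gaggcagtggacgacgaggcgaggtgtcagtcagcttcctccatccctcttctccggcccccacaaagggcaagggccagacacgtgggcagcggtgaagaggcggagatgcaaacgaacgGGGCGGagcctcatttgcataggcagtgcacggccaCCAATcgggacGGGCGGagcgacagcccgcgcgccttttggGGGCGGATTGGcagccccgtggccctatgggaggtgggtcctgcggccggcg

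Fkbp4, chr6:128438657-128438906, minus strand: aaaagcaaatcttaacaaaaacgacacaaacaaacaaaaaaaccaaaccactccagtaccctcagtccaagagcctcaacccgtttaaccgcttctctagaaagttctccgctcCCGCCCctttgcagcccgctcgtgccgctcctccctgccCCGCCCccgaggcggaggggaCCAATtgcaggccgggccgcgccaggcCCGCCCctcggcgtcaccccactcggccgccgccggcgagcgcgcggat

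The Fkbp5 window was 68% G and C with 23 CpG pairs, 3 GC boxes and 2 CCAAT boxes. The Fkbp4 window was 63.2% G and C with 25 CpG pairs, 3 GC boxes and 1 CCAAT box. A GC box was present in the same 250 bases of 32.7% of all 32851 promoters in that table and a CCAAT box in 33.8%, and both of these short motifs were picked for display after the values were known. Within 250 bases before to 50 bases after the start, no promoter of these 5 genes held the palindromic glucocorticoid response element (AGAACA, any 3 bases, TGTTCT), which 0.00913% of all promoters held. The single site AGAACA on either strand was present in 19% of all promoters and in 0 of the 5. The heat shock element (3 alternating GAA and TTC units, each 2 bases apart) was present in 0.603% of all promoters and in 0 of the 5. These windows do not reach into introns or distant regions. The searches allowed no mismatch, so they cannot show that variant sites are absent. The exact palindrome was so rare among all promoters that its absence from 5 is not informative.

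The libraries held from 19631435 to 88596296 counts. Markers of myotubes such as Myog, Mymk, Acta1 and Myh3 were abundant in every library, and most differed by replicate number. Ttn alone stood at 118000 and 41100 CPM in vehicle 1 and 2 and at 113000 and 39900 CPM in dexamethasone 1 and 2. The 9 such genes other than Ttn summed to 5530 CPM in vehicle 1 and 6020 CPM in dexamethasone 1. Their sums were 2130 CPM in vehicle 2 and 2280 CPM in dexamethasone 2. Myh3 was the largest part of these sums, with 3310 and 3490 CPM in the replicate 1 libraries against 1090 and 1080 CPM in replicate 2. Mymk was nearly equal between numbers, at 176 and 173 CPM in vehicle and 208 and 208 CPM in dexamethasone. Mymx was higher in replicate 2, at 8.9 and 11.6 CPM in vehicle and 9.88 and 15.6 CPM in dexamethasone. Of 7 myoblast genes, Pax7 stood at 32 and 39 CPM in vehicle and 17.9 and 22.9 CPM in dexamethasone, while the 6 others summed to 28.3 and 26.1 CPM against 28.1 and 31 CPM. Of 5 fibroblast genes, Pdgfra stood at 6.12 and 4.3 CPM in vehicle and 9.14 and 12 CPM in dexamethasone, Dpt was lower in dexamethasone, and the 4 genes other than Pdgfra summed to 7.4 and 4.98 CPM against 9.57 and 3.5 CPM, with Lum at 0 throughout. Of 5 macrophage genes, Cd68 stood between 2.92 and 3.87 CPM, and the 4 others summed to at most 0.237 CPM. Whether these differences have a part in the results below was not tested. CPM is a count scaled to a common library total, here with TMM, a factor that corrects for library make-up. In edgeR's quasi-likelihood fit of 13285 genes, 0.0376% were called higher after dexamethasone at a Benjamini-Hochberg adjusted p under 0.05 and 0% lower.

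Among the members, Fkbp5 rose and no other member passed the threshold in either direction (1 of 10 called). At an unadjusted p under 0.05, 1 member was higher and 1 lower, beside 4.09% and 1.69% of all genes. The receptor gene Nr3c1 had lower values in both dexamethasone libraries, by about the same factor in each replicate number, without passing. In libraries of the same replicate number, 4 members were higher after dexamethasone in both numbers and 4 lower in both, beside 34.2% and 33.9% of all genes. The Hsp90, Hsp70, p23, Hop and cyclophilin genes had log2 fold changes between -0.35 and 0.38. The median log2 fold change of the 10 genes was -0.07, beside -0.002 for all genes tested.

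**Figure D1:**
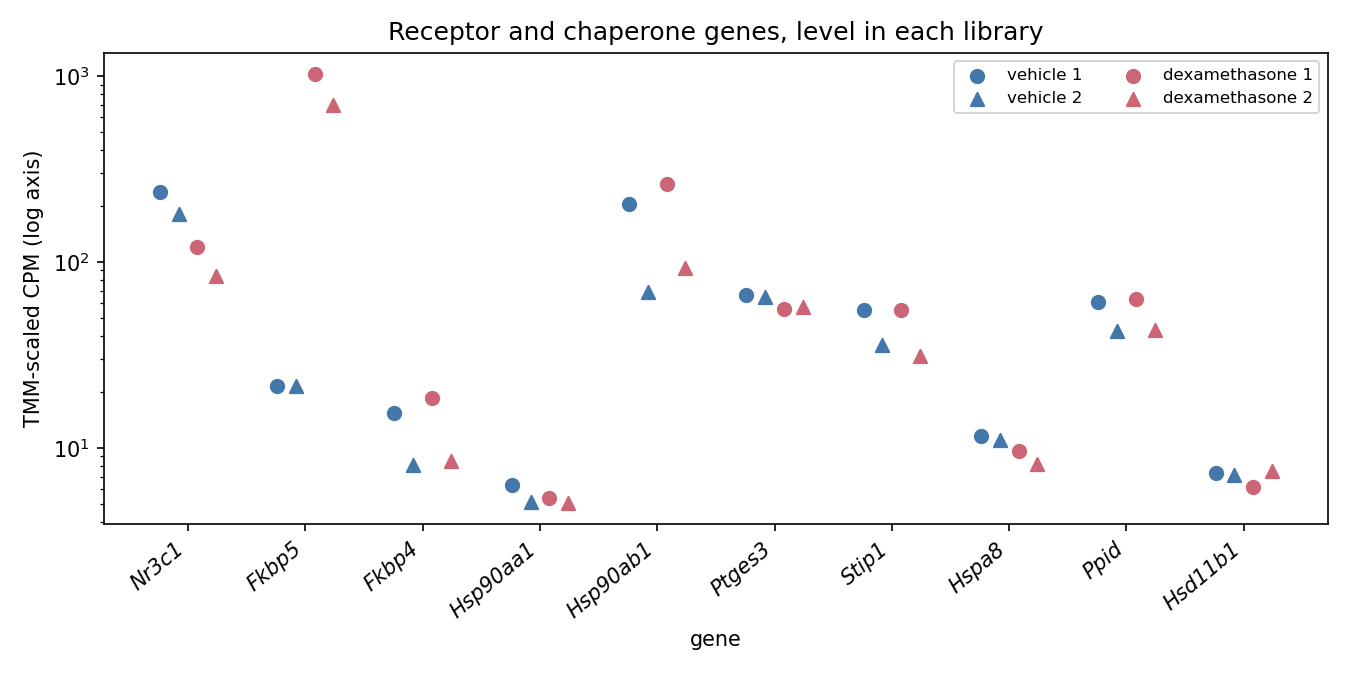
TMM-scaled CPM (log axis) of each of the 10 genes in the 4 libraries, with vehicle in blue, dexamethasone in red, circles for replicate 1 and triangles for replicate 2. Fkbp5 is the one gene whose dexamethasone libraries (1020 and 697 CPM) lie far above its vehicle libraries (21.5 and 21.6 CPM), and the Nr3c1 points of dexamethasone lie below those of vehicle.

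Nr3c1 (ENSMUSG00000024431), which encodes the glucocorticoid receptor, stood at 238 and 180 CPM in vehicle and at 121 and 83.8 CPM in dexamethasone. The groups did not overlap, dexamethasone being the lower one, and in each group replicate 1 was above replicate 2. Comparing libraries of the same number, the log2 ratio was -0.97 for replicate 1 and -1.10 for replicate 2. The fitted log2 fold change was -1.03 (SE 0.251, 95% interval -1.69 to -0.36), which is 2.04-fold lower, with an edgeR unadjusted p of 0.0114 and an adjusted p of 0.43. Ordered from the largest fall, it was number 166 of 13285 genes. Ranked by raw count among all features, it stood at 787 and 1078 in vehicle 1 and 2 and at 1853 and 2562 in dexamethasone 1 and 2. Its adjusted p ranged from 0.000235 to 0.89 over the alternatives, and its fold change from -1.31 to -0.78, the smallest fall being without dexamethasone replicate 2. DESeq2's Wald test (adjusted p 0.017) and edgeR's likelihood ratio test (adjusted p 0.0272) called the fall, as did a replicate block in the edgeR fit, which gave the lowest of these adjusted p values.

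Fkbp5 (ENSMUSG00000024222) had nearly equal values in the vehicle libraries, 21.5 and 21.6 CPM, and 1020 and 697 CPM after dexamethasone. The lowest dexamethasone library was thus far above the highest vehicle library, and the spread between dexamethasone libraries was larger than that between vehicle libraries. The fold change was 39.8 (log2 5.32, SE 0.263, 95% interval 4.62 to 6.01; edgeR adjusted p 0.0429), number 6 of 13285 genes by size of rise, and the log2 ratio was 5.57 in replicate 1 and 5.01 in replicate 2. Under limma-voom the adjusted p was 0.0598 and the rise was not called, and over all alternatives it ran from 3.6e-84 to 0.0598. Its rank by raw count moved from 6028 and 6104 in vehicle to 86 and 152 in dexamethasone. In the GENCODE M21 annotation 4 other genes overlap Fkbp5, 2 of them on its strand, and 0 of the 4 matched a counted feature by Ensembl identifier. The effect of these overlaps on its counts was not tested.

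The share of a library taken by Fkbp5 was 0.00204% in vehicle 1 (95% Wilson interval 0.00185% to 0.00225%) and 0.00233% in vehicle 2 (0.00218% to 0.0025%). After dexamethasone it was 0.0941% in replicate 1 (0.093% to 0.0951%) and 0.0734% in replicate 2 (0.0729% to 0.074%). These intervals cover counting error only. Of the counts of all 10 genes together, Fkbp5 held 3.12% and 4.85% in vehicle and 63% and 67.4% in dexamethasone. The 9 other genes summed to 665 and 423 CPM in vehicle and to 598 and 337 CPM in dexamethasone, with the replicate 1 library the higher of each group.

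Ratios inside a library do not depend on scaling between libraries. The ratio of Fkbp5 to Nr3c1 counts was 0.0902 in vehicle 1 and 0.12 in vehicle 2, against 8.39 in dexamethasone 1 and 8.32 in dexamethasone 2. On the log2 scale the mean ratio moved from -3.27 ± 0.29 to 3.06 ± 0.01 (SD, n = 2 each), a difference of 6.33. An exact two-sided permutation test over the libraries gave p = 0.333, the smallest that 2 against 2 allows. The dexamethasone libraries agreed closely in this ratio although Fkbp5 and Nr3c1 each differed between them, replicate 1 being higher in both genes (log2 0.55 for Fkbp5 and 0.54 for Nr3c1).

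Fkbp4 (ENSMUSG00000030357), which encodes FKBP52, an immunophilin that favours hormone binding and transport of the receptor to the nucleus, stood at 15.4 and 8.12 CPM in vehicle and 18.6 and 8.45 CPM in dexamethasone. The groups overlapped, and both replicate 1 libraries were above both replicate 2 libraries. Its log2 fold change was 0.20 (SE 0.509, 95% interval -1.15 to 1.55), which takes in both a rise and a fall of more than 1 on the log2 scale. It turned negative without vehicle replicate 2 (-0.20) and without dexamethasone replicate 1 (-0.46). The ratio of Fkbp5 to Fkbp4 counts was 1.39 and 2.66 in vehicle and 54.8 and 82.4 in dexamethasone, a log2 difference of 5.13 (exact permutation p = 0.333, again the smallest possible). Ppid (ENSMUSG00000027804), the gene of cyclophilin 40, another immunophilin of these complexes, stood at 60.5 and 42.5 CPM in vehicle and 63.1 and 42.8 CPM in dexamethasone. Libraries of the same number were nearly equal, with log2 ratios of 0.06 and 0.01, and the fitted change was 0.04 (SE 0.278, 95% interval -0.69 to 0.78).

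**Figure D2:**
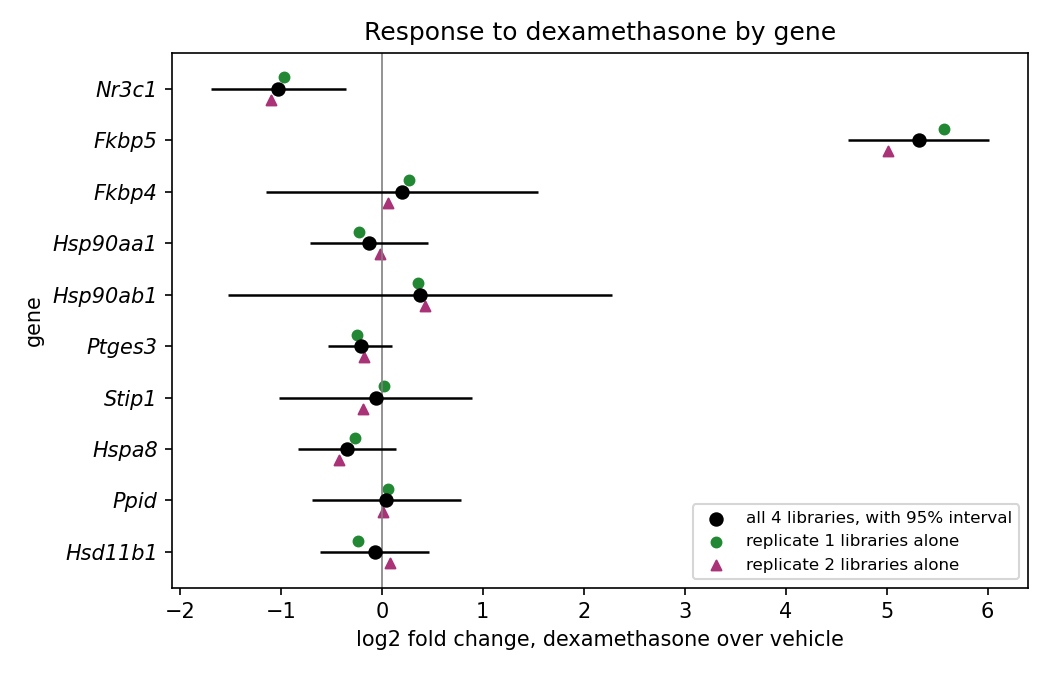
Log2 fold change of dexamethasone over vehicle for each gene: black points with 95% intervals from the fit of all 4 libraries, green circles for replicate 1 libraries alone and purple triangles for replicate 2 libraries alone. Only the intervals of Fkbp5 (4.62 to 6.01) and Nr3c1 (-1.69 to -0.36) lie wholly to one side of 0, and these intervals are not adjusted for the number of genes tested.

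The 2 genes of cytosolic Hsp90 differed widely in level. Hsp90ab1 (ENSMUSG00000023944), the constitutive beta form, stood at 205 and 68.5 CPM in vehicle and at 263 and 92.6 CPM in dexamethasone. Its values separated by replicate number rather than by treatment: replicate 1 was above replicate 2 by 1.58 on the log2 scale in vehicle and by 1.51 in dexamethasone. Within a number, dexamethasone was the higher library in each case, by 0.36 and 0.43. The fitted log2 fold change was 0.38 (SE 0.718, 95% interval -1.52 to 2.28), the widest interval of the 10 genes. It ran from -0.55 without dexamethasone replicate 1 to 1.37 over the fits that left out 1 library. With the replicate number as a block the rise was called (0.40, edgeR adjusted p 0.00632). Hsp90aa1 (ENSMUSG00000021270), the stress-inducible alpha form, had only 117 and 194 counts with vehicle and 160 and 472 with dexamethasone, or 6.28 and 5.11 CPM against 5.34 and 5.05 CPM. Its groups overlapped, with a log2 fold change of -0.13 (SE 0.221, 95% interval -0.71 to 0.46) that turned to 0.02 without vehicle replicate 1. The ratio of Hsp90ab1 to Hsp90aa1 counts was 32.7 and 13.4 in vehicle and 49.3 and 18.3 in dexamethasone (exact permutation p = 0.667). How reads that match both of these similar genes, or processed copies of them, were counted is not given in the sources used here, so this ratio is uncertain.

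Stip1 (ENSMUSG00000024966) encodes Hop, the adaptor between Hsp70 and Hsp90. It stood at 54.8 and 35.8 CPM in vehicle and 55.4 and 31.3 CPM in dexamethasone, overlapping between groups and higher in both replicate 1 libraries. The log2 fold change was -0.06 (SE 0.36, 95% interval -1.02 to 0.89), and it turned positive without vehicle replicate 1 (0.27) and without dexamethasone replicate 2 (0.29). In all, 5 of the 10 genes (Fkbp4, Hsp90aa1, Hsp90ab1, Stip1 and Ppid) had both replicate 1 libraries above both replicate 2 libraries, where 31.8% of all genes tested did. Most of the myotube markers, but not Mymk and Mymx, were also higher in both replicate 1 libraries, and their part in this was not tested.

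Ptges3 (ENSMUSG00000071072), the gene of the p23 co-chaperone, had the smallest standard error of the 10 genes, with 66.1 and 65 CPM in vehicle and 55.8 and 57.5 CPM in dexamethasone. Its groups did not overlap, dexamethasone being slightly lower. The log2 fold change was -0.21 (SE 0.119, 95% interval -0.53 to 0.10), with an edgeR unadjusted p of 0.142. A fall of more than 0.53 on the log2 scale thus lay outside the interval. The GENCODE M21 annotation names 1 pseudogene after Ptges3, and its effect on these counts was not tested. Hspa8 (ENSMUSG00000015656), which encodes the constitutive Hsp70 of the cytosol, stood at 11.6 and 11 CPM in vehicle and 9.64 and 8.17 CPM in dexamethasone, again without overlap. Its log2 fold change was -0.35 (SE 0.185, 95% interval -0.83 to 0.14; edgeR unadjusted p 0.127). In the GENCODE M21 annotation 3 other genes overlap Hspa8 on its strand, and 0 of them matched a row of the count table by Ensembl identifier. The effect of these overlaps on Hspa8 counts was not tested. With Nr3c1, these made 3 members whose dexamethasone libraries were both below the vehicle libraries, and Fkbp5 was the 1 member above. Over all genes tested 12.9% were below in this way and 15% above. Ptges3 and Hspa8 kept their negative sign in all 13 alternatives, where Ptges3 ranged from -0.25 to -0.18 and Hspa8 from -0.46 to -0.23, and neither was called in any.

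Hsd11b1 (ENSMUSG00000016194) encodes 11β-hydroxysteroid dehydrogenase type 1, which regenerates active glucocorticoid from its inactive 11-keto form inside cells. It stood at 7.3 and 7.12 CPM in vehicle and 6.17 and 7.52 CPM in dexamethasone. The dexamethasone libraries lay on both sides of the vehicle libraries, and the log2 ratio was -0.24 in replicate 1 and 0.08 in replicate 2. The fitted change was -0.07 (SE 0.204, 95% interval -0.61 to 0.47), and 0.07 without dexamethasone replicate 1. Its locus overlaps Lamb3 on the opposite strand in GENCODE M21. Lamb3 had 82 to 240 counts per library, and as the strand setting of the counting is not given in the sources used here, reads of the pair may not have been told apart.

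**Figure D3:**
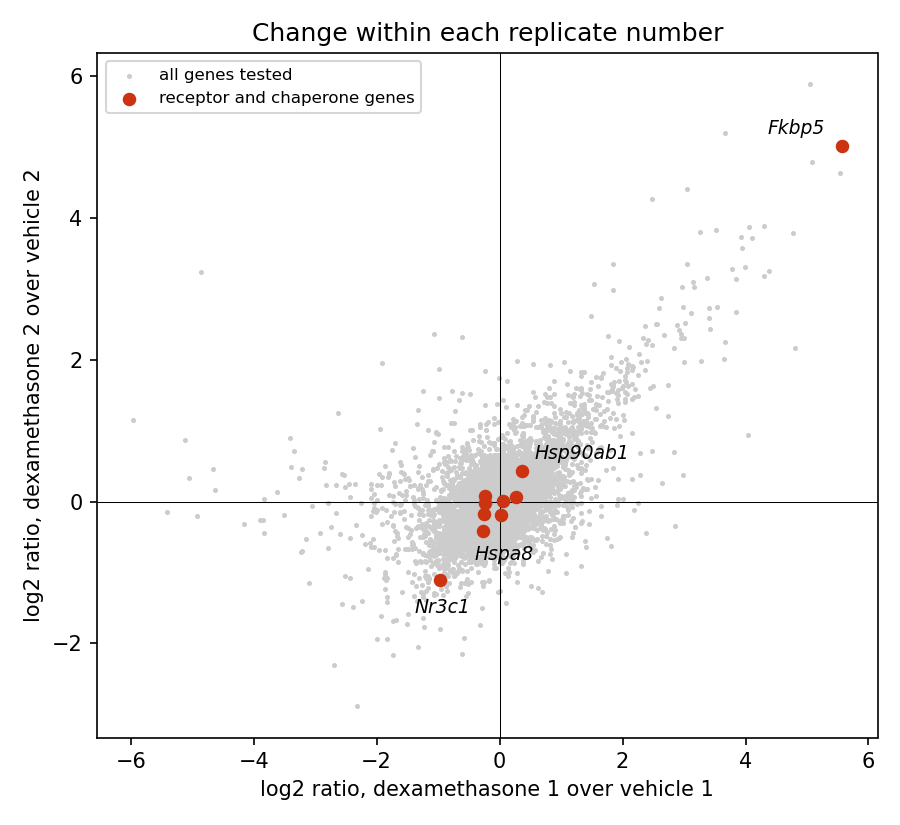
Log2 ratio of dexamethasone over vehicle in the replicate 1 libraries (x axis) and the replicate 2 libraries (y axis), with all 13285 genes tested in grey and the 10 genes in red. Fkbp5 lies at 5.57 and 5.01 and Nr3c1 at -0.97 and -1.10, while the 8 others lie within the bulk of genes near 0.

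Levels were compared between genes per kb of exon, taking exon lengths from GENCODE M21 and assuming that exons were counted. In vehicle the order was Hsp90ab1 at 45.7 ± 32.2, Ptges3 at 29.6 ± 0.352, Nr3c1 at 27.2 ± 5.31 and Stip1 at 21.5 ± 6.36 CPM per kb (SD, n = 2 each). Among these 4, neighbours in the order overlapped, though both Ptges3 libraries lay above both Stip1 libraries. Ppid followed at 11.1 ± 2.74 CPM per kb and Fkbp4 at 4.22 ± 1.86, both below the next higher gene in both libraries. At the low end came Hspa8 at 2.63 ± 0.111, Fkbp5 at 2.27 ± 0.00939, Hsd11b1 at 1.69 ± 0.030 and Hsp90aa1 at 1.45 ± 0.209 CPM per kb. How reads that also match another gene were counted is not given in the sources used here. The place of genes with similar copies, such as Hsp90aa1 and Hsp90ab1, is therefore uncertain in both groups.

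After dexamethasone Fkbp5 had the highest mean level per kb of exon of the 10 genes, 90.6 ± 24.1 CPM per kb, overlapping with Hsp90ab1 at 59.3 ± 40.2. Ptges3 at 25.6 ± 0.559, Stip1 at 20.6 ± 8.07, Nr3c1 at 13.4 ± 3.47 and Ppid at 11.4 ± 3.08 followed. Among them, neighbours in the order overlapped. Nr3c1 thus went from rank 3 in vehicle to rank 5. If reads were counted over whole genes, introns included, the order changes: per kb of gene span Nr3c1 ranked 5 in vehicle (1.92 ± 0.374 CPM per kb) and 8 after dexamethasone (0.942 ± 0.245). On that scale Fkbp5 went from rank 9 (0.182 ± 0.000751) to rank 2 (7.24 ± 1.92), with Hsp90ab1 at rank 1 in both groups.

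**Figure D4:**
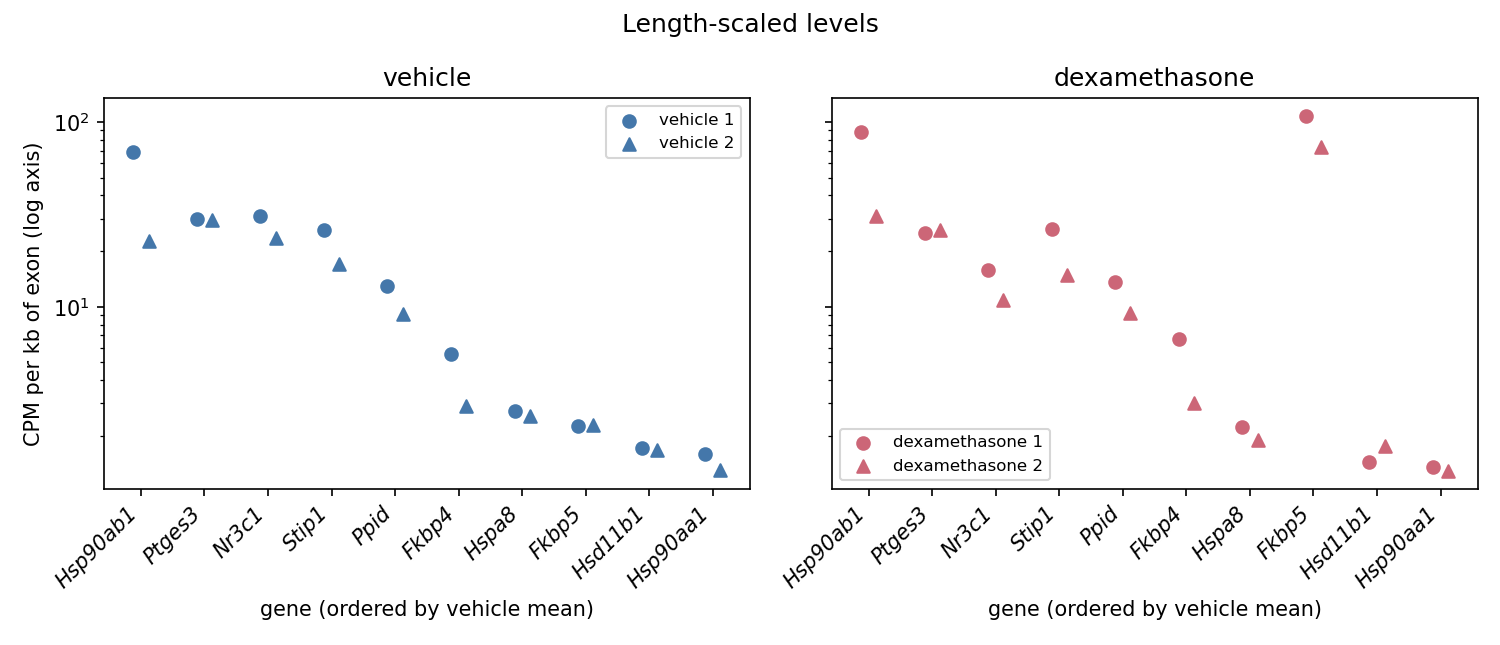
CPM per kb of exon (log axis) of the 10 genes in the vehicle libraries (left) and dexamethasone libraries (right), in the order of the vehicle means, with circles for replicate 1 and triangles for replicate 2. Fkbp5 moves from 2.27 on average to 90.6, overlapping with Hsp90ab1, and Nr3c1 moves from 27.2 to 13.4.

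The genes next to the members on the chromosome were examined. The nearest coding genes on either side in the table were taken, 20 in all, of which 15 were abundant enough to test. Of these 0 were called by edgeR, beside 0.0376% of all genes tested. Beside Fkbp5, the downstream gene Tulp1 had 0 and 2 counts with vehicle and 0 and 3 with dexamethasone, and the upstream gene Armc12 had 0 and 0 against 0 and 1. The rise of Fkbp5 was thus not accompanied by counts above 3 in either neighbour. Downstream of Nr3c1, on the other strand, Arhgap26 had a log2 fold change of 0.17 (SE 0.345). These neighbours were named after their values were seen.

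Genes with the most similar pattern were found by the distance between centred log2 CPM values over the 4 libraries, among 10432 genes with at least 50 counts in every library. For Fkbp5 the closest were Errfi1 (distance 1.35), Mertk (1.4) and Pi15 (1.58). Errfi1, which encodes an inhibitor of the EGF receptor, went from 16 and 12.7 CPM in vehicle to 267 and 187 CPM in dexamethasone. For Nr3c1, whose values lay closer to those of other genes, they were Sdc2 (0.139), Tlcd4 (0.161) and Ptx3 (0.164). Sdc2, the gene of the cell surface proteoglycan syndecan 2, went from 1200 and 872 CPM to 613 and 462 CPM, a log2 fold change of -0.94 (SE 0.24). With 4 libraries such likeness reflects the treatment and the replicate number together.

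Beyond the members, 106 genes of the chaperone and receptor pathway were examined in 6 lists, of which 102 could be tested. By edgeR 0 of them were called, beside 0.0376% of all genes. At an unadjusted p under 0.05, 4 were higher and 0 lower, beside 4.09% and 1.69% of all genes. Their median log2 fold change was 0.03. In 17 of the 102 both dexamethasone libraries were above both vehicle libraries and in 6 both were below, beside 15% and 12.9% of all genes.

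The 25 other Hsp90 co-chaperones, all tested, had a median of 0.04 with a range of -0.21 to 0.82. Fnip2, whose product binds folliculin and slows the Hsp90 ATPase, was at the top: it had 2212 and 4818 counts in vehicle and 7397 and 17474 in dexamethasone, or 123 ± 5.88 against 217 ± 42.2 CPM (SD, n = 2 each). Its log2 fold change was 0.82 (SE 0.179; edgeR unadjusted p 0.00737, adjusted p 0.348). Fnip2 was the 1 list gene of 102 called by the Wald test of DESeq2 and the likelihood ratio test of edgeR, with adjusted p of 0.0345 and 0.0314. Of all genes, the Wald test called 1.78% higher and 0.399% lower, and the likelihood ratio test 1.83% and 0.339%. Fnip2 is also the upstream neighbour of Ppid, on the opposite strand, and its relative Fnip1 had a log2 fold change of -0.02 (SE 0.282). Cdc37l1, a relative of the kinase co-chaperone Cdc37, was next with 0.31 (SE 0.161). The lowest values were those of Unc45b, a myosin chaperone of muscle, at -0.21 (SE 0.36), and of Flcn at -0.19 (SE 0.39). In the Hsp70 system, 25 genes of Hsp70s, J-domain proteins and exchange factors had a median of 0.03, from -0.46 to 0.51. Dnajb5 (0.51, SE 0.206) and Hspa5, the Hsp70 of the endoplasmic reticulum (0.42, SE 0.163), had the largest positive values. Bag2, a nucleotide exchange factor (-0.32, SE 0.17), and Dnaja1 (-0.28, SE 0.134) had the most negative among genes with at least 50 counts per library. The organelle forms of Hsp90 were at 0.22 (SE 0.229) for Hsp90b1 and -0.02 (SE 0.12) for Trap1.

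Of 24 other FKBP and cyclophilin genes 23 were tested, with a median of 0.04 and a range of -0.27 to 0.40. The ends of this range were Fkbp7 (0.40, SE 0.265) and Fkbp10 (-0.27, SE 0.167), both immunophilins of the endoplasmic reticulum, with Fkbp14 (0.26, SE 0.179) and Ppil1 (-0.15, SE 0.192) next to them. In these data none of the 23 had a fold change near that of Fkbp5. Heat shock factors and the small and mitochondrial heat shock proteins numbered 15, with 14 tested, a median of -0.04 and a range of -0.24 to 0.88. Hspb7 (0.88, SE 0.706) and Cryab (0.59, SE 0.786) had high values with wide errors. Libraries of the same replicate number had log2 ratios of 0.88 and 0.85 for Hspb7 and of 0.61 and 0.48 for Cryab. Both were called higher in the edgeR fit with a replicate block, which called 6.87% of all genes higher. Hsf4 (-0.24, SE 0.421) and Hsf2 (-0.20, SE 0.396) had the lowest values, and Hspb2 was listed at 0 in every library.

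The list on glucocorticoid supply, transport and receptor traffic had 15 genes, 13 of them tested, with a median of 0.05 and a range of -0.41 to 0.74. It held 3 of the 4 genes that were higher at an unadjusted p under 0.05. H6pd, whose product supplies NADPH to 11β-hydroxysteroid dehydrogenase type 1, went from 33.4 ± 7.84 to 55.9 ± 7.5 CPM (SD, n = 2 each; log2 0.74, SE 0.222, edgeR adjusted p 0.608). Abcb1b, a P-glycoprotein gene whose product exports dexamethasone among other compounds, went from 17.8 ± 1.39 to 27.6 ± 4.95 CPM (log2 0.63, SE 0.192, edgeR adjusted p 0.629). The other was the import receptor gene Tnpo1 (log2 0.49, SE 0.139, edgeR adjusted p 0.559), named after its values were seen. Abcb1a, the second P-glycoprotein gene of the list, was at -0.41 (SE 0.569) with 11 to 46 counts per library. It too was named after its values were seen. Nr3c2, the gene of the mineralocorticoid receptor, which also binds glucocorticoids, was at -0.19 (SE 0.212), and Gsk3b, a kinase that phosphorylates the receptor, at -0.24 (SE 0.198). Hsd11b2, whose enzyme inactivates natural glucocorticoids, had too few counts to test.

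**Figure D5:**
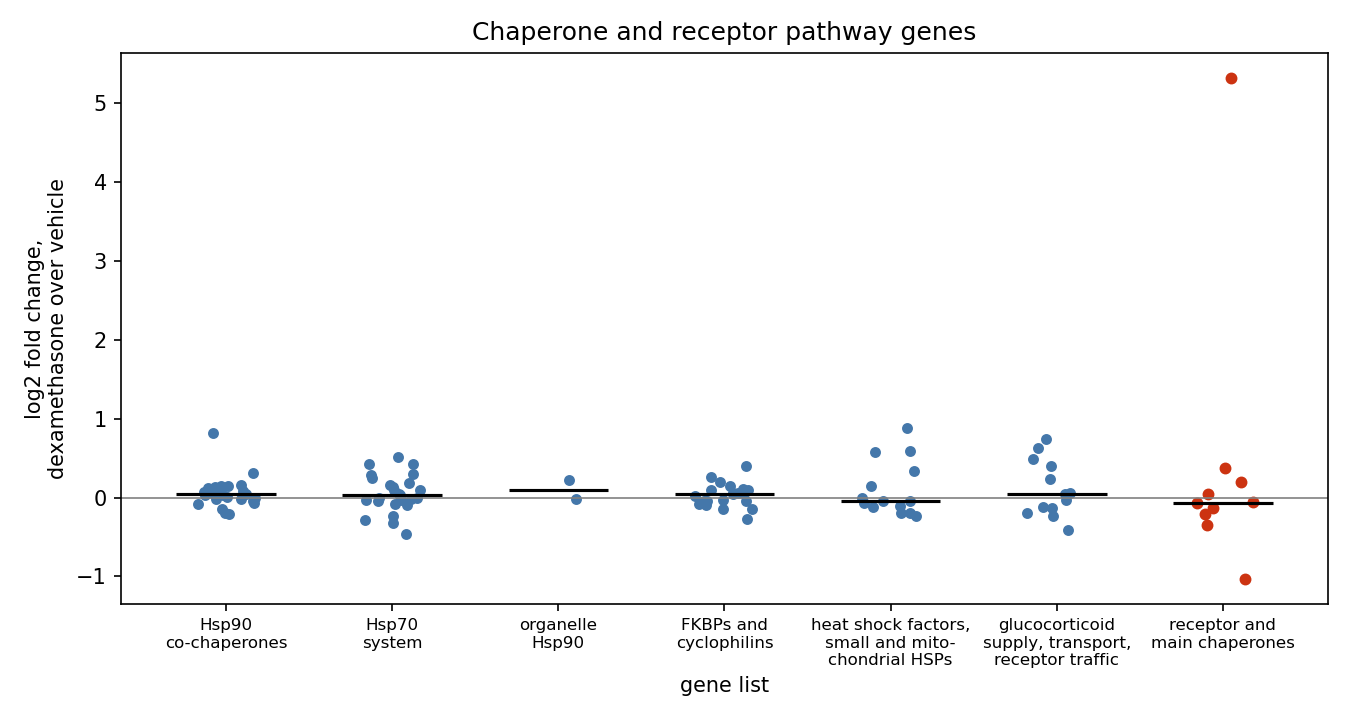
Log2 fold change of dexamethasone over vehicle for each tested gene of 6 pathway lists (blue) and of the 10 receptor and main chaperone genes (red), with a black line at each median. All 102 list genes lie between -0.46 and 0.88, and Fkbp5 at 5.32 stands apart.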

How the data were processed

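The deposited table holds raw read counts per gene, made by the authors from libraries of chromatin-bound nuclear RNA. TopHat2 2.0.13, SAMtools 1.1, HTSeq 0.6.1, DESeq2 1.18.1 and the build mm9 are named in the submitters' processing notes, with no role given; the annotation, the strand setting and whether introns were counted are not given in the sources used here. The labels name both a stranded total RNA kit and a stranded mRNA kit.

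Of 23333 rows, 51 repeated an earlier row and were used once. Genes passing filterByExpr (minimum count 10, minimum total 15) numbered 13285. The test was that of edgeR 4.0.16, run in R 4.3.3 (TMM, quasi-likelihood, group as the only term, 2 residual and 2.56 prior degrees of freedom), with Benjamini-Hochberg adjustment over all of them and a threshold of 0.05. Standard errors are the fold change divided by the root of F, and 95% intervals use the total degrees of freedom. Log2 ratios within a replicate number have a prior count of 2 added. Totals were 19631435 and 35116830 counts in vehicle 1 and 2, and 32463331 and 88596296 in dexamethasone 1 and 2, so low genes are least precise in vehicle 1. The fits were also run on simulated counts that had no difference by replicate number, so that run does not show how they perform on these data.

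Genes named are the members, the list genes that passed or otherwise the 2 highest and 2 lowest per list with at least 50 counts in every library, and the 3 genes nearest to Fkbp5 and to Nr3c1. The members and lists were chosen with earlier results of these data known. GENCODE M21 (GRCm38) gave lengths and neighbours, matched on Ensembl identifiers (99.5% of tested genes had a length). Because that build differs from mm9, no coordinate was joined to the counts, and the promoter positions are those of the RefSeq table. No protein sequences were used here. Alternatives were 3 other scalings, 2 other filters, DESeq2 1.42.0, the likelihood ratio test, limma-voom (limma 3.58.1), a replicate block and leaving out each library.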

Additional observations from a re-analysis of the deposited data

How the results depend on the processing

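With 2 libraries per group, the calls depended on the test. Against 5 genes higher and 0 lower, an edgeR fit of every gene with a count called 23 higher. Under the Wald test of DESeq2 236 were higher and 53 lower, under the likelihood ratio test 243 and 45, and under limma-voom 0 and 0 (540 and 231 at an unadjusted p under 0.05, where the edgeR test had 543 and 225). The number of members called, 1 by edgeR's quasi-likelihood test, was 2 under the Wald and likelihood ratio tests and 0 under limma-voom. Nr3c1 passed under the Wald test (log2 fold change -1.04) and the likelihood ratio test (-1.03), and Fkbp5 missed the threshold under limma-voom (5.30, adjusted p 0.0598). The cause was not tested.

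Whether replicate numbers mark a shared culture or day is not stated, and with only 2 pairs the data cannot settle it; differences between replicates 1 and 2 correlated between groups across genes (r = 0.734). With the replicate block 913 genes were called higher and 768 lower, and 3 members: Fkbp5 (5.27), Nr3c1 (-1.04, adjusted p 0.000235) and Hsp90ab1 (0.40, adjusted p 0.00632). Of 102 list genes 10 were called higher and 3 lower in that fit, beside 6.87% and 5.78% of all genes.

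Leaving out 1 library, where the lone library of a group is assumed to vary like the other group, gave 4 to 84 genes higher and 0 to 109 lower, both highest without vehicle replicate 2, and called 1 member each time. Fkbp5 ranged from 5.02 to 5.56 and Nr3c1 from -1.31 to -0.78. Signs changed for Fkbp4 (-0.46 to 0.73), Hsp90ab1 (-0.55 to 1.37) and Ppid (-0.26 to 0.32), each negative without vehicle replicate 2 (-0.20, -0.20 and -0.19) and lowest without dexamethasone replicate 1. They also changed for Stip1 (-0.52 to 0.29; 0.27 without vehicle replicate 1 and 0.29 without dexamethasone replicate 2), Hsp90aa1 (-0.27 to 0.02, the highest without vehicle replicate 1) and Hsd11b1 (-0.22 to 0.07, the highest without dexamethasone replicate 1). Of 130 alternative values for the 10 genes, 115 kept their direction and side of the threshold, 4 became stronger, 1 weaker and 10 reversed.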
